A study of Mus musculus with 3 samples.

Results

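The genes of 7 transcription factors of the female germline, Figla, Nobox, Sohlh1, Sohlh2, Lhx8, Taf4b and Tbpl2, were examined for trimethylation of lysine 36 of histone H3 (H3K36me3) in mouse oocytes. They were taken by name out of 21755 protein-coding genes, as regulators of follicle formation and oocyte growth, by a rule that uses no measured value. Earlier results of these data were known when the 7 genes were chosen. All 2 kb windows of the deposited table that overlapped their gene bodies (GENCODE M21, GRCm38) or the 10 kb on both sides were used, which gave 176 of 1186323 valid windows, 106 of them on gene bodies. The chromatin came from fully grown oocytes at the germinal vesicle (GV) stage, arrested in prophase of meiosis, of wildtype C57BL6/Babr females aged 25 days. Pools of about 280 oocytes gave 3 replicate libraries by native ChIP-seq for ultra-low input, in which unfixed chromatin is cut with micrococcal nuclease before the antibody is added. Less antibody went into replicate 2 than into replicates 1 and 3. The paper reports that a further replicate with the higher amount was made after an antibody titration, without giving its number. There was 1 group, with no other stage, genotype or treatment to compare.

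H3K36me3 is written over the bodies of transcribed genes, mainly by SETD2, as RNA polymerase II passes. In oocytes it is associated with DNA methylation, by a link that the paper says may be indirect. H3K4me3 marks promoters, and in oocytes also broad domains elsewhere, while H3K27me3 is the mark of Polycomb repressive complex 2. Sohlh1, Sohlh2, Lhx8, Nobox and Figla are known from knockout mice as regulators of the formation of primordial follicles or of their early growth, and Taf4b and Tbpl2 encode germline forms of subunits of the general transcription machinery.

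The libraries held 7888140, 2692510 and 3166564 reads in valid windows for replicates 1, 2 and 3, so that 1 read in a window was worth 0.136, 0.396 and 0.338 RPKM. RPKM is the authors' name for reads scaled to window length and library size, and the mean over all valid windows was 0.903, 0.900 and 0.903. A window was called for H3K36me3 where its mean over the replicates was above 1, which held for 31.8% of valid windows. The gene bodies of 6 of 7 oocyte markers had a level above 1. The share was 53.8% among the 20338 protein-coding genes with at least 2 body windows, the set used for such shares below. Among the oocyte markers, the maternal effect gene Zar1 was the exception at 0.224 ± 0.042 (SD, n = 3). Of 8 granulosa cell markers, 1 had a level above 1, Amh at 1.39 ± 0.68 over 2 windows. Levels below are the mean over a gene's body windows in each replicate. The mean over replicates carries its SD with n = 3, and exact 95% Poisson intervals on reads cover counting error only, since PCR copies may be among the reads.

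The body level was above 1 in 5 of the 7 genes, against 53.8% of all protein-coding genes. Nobox stood highest, followed by Lhx8, Tbpl2, Figla and Taf4b, and Sohlh1 and Sohlh2 lay far below. Between neighbours in that order, only Taf4b and Sohlh1 had replicate values that did not overlap, with a difference of 1.34 ± 0.13 RPKM and the same direction in 3 of 3 replicates. The other neighbours overlapped. Among the 5 high genes, Lhx8 and Nobox had replicate values wholly above those of Taf4b, by 0.478 ± 0.324 and 1.26 ± 1.09 RPKM and in 3 of 3 replicates, and the other pairs overlapped. A sign-flip permutation test over 3 replicates cannot give a p below 0.25, so levels are given without a test. In pools, fewer oocytes with the mark and less of it in each oocyte cannot be told apart.

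**Figure D1:**
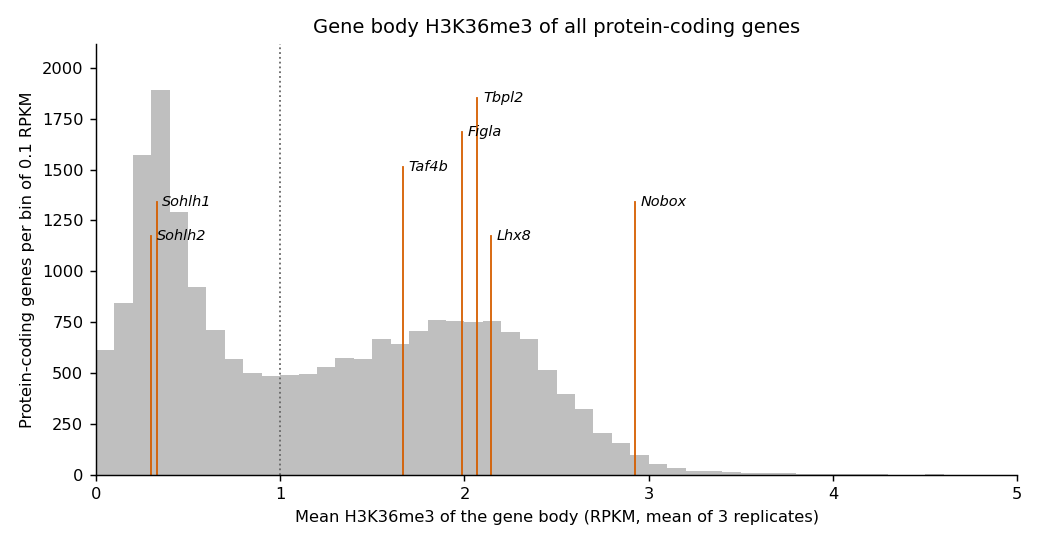
The grey bars count protein-coding genes by the mean H3K36me3 level of the gene body (x axis, RPKM, mean of 3 replicates, bins of 0.1, shown from 0 to 5), and each orange line marks 1 of the 7 genes, with line height carrying no value. Sohlh1 and Sohlh2 fall in the lower peak of the distribution, and the other 5 genes lie above the dotted threshold of 1. Nobox at 2.93 lies far in the upper tail, a place that rests on replicate 3, without which its level was 2.19.

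Promoter sequences of 4 genes are shown because their starts differ in chromatin state. The start windows of Nobox and Tbpl2 were called for H3K36me3 and H3K4me3, and those of Lhx8 and Sohlh1 for H3K4me3 and H3K27me3 without H3K36me3, Lhx8 having the mark further inside and Sohlh1 not. The sequences are those of RefSeq (GRCm38.p6), from 250 bases before to 50 after the RefSeq start, written 5′ to 3′ on the gene's strand, and the capitals mark E-boxes (CANNTG), the sites bound by basic helix-loop-helix factors such as FIGLA, SOHLH1 and SOHLH2.
Sohlh1, chr2:25847199-25847498, minus strand: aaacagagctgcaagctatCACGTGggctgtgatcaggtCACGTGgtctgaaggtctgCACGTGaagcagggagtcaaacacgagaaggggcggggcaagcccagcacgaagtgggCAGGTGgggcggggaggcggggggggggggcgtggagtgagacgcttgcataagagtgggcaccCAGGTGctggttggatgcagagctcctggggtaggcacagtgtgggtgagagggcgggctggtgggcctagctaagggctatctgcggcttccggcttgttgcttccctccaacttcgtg
Nobox, chr6:43309505-43309804, minus strand: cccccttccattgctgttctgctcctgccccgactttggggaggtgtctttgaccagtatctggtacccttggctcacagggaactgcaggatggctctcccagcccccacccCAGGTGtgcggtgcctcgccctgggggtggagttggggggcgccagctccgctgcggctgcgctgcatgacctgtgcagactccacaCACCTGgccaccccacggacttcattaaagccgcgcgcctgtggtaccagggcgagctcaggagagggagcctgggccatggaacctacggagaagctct
Lhx8, chr3:154330511-154330810, minus strand: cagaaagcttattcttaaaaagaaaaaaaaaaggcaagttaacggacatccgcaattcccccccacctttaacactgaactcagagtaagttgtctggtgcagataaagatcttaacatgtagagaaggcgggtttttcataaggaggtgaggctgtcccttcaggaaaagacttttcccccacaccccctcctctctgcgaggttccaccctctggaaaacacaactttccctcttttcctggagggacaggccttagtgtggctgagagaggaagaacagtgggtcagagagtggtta
Tbpl2, chr2:24096546-24096845, minus strand: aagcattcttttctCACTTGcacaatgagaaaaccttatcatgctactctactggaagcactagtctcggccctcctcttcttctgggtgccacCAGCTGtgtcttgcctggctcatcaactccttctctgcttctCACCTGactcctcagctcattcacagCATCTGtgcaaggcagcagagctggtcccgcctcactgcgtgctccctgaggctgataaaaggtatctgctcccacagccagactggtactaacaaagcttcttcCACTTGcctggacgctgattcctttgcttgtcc
The RefSeq promoter table held 6 of the 7 genes, all but Taf4b. Its start for Figla, that of the protein-coding transcript, lies 1.02 kb inside the GENCODE gene, in the same 2 kb window as the gene start, and its start for Lhx8 lies 0.099 kb inside. CANNTG, which reads the same on both strands, occurred 5 times in Sohlh1 and in Tbpl2, 4 times in Figla, 2 times in Nobox, 1 time in Sohlh2 and not in Lhx8. At least 1 match was present in 72.3% of 32851 promoters of this length and at least 5 in 2.10%. Of the 5 matches in Sohlh1, 3 read CACGTG, a sequence present at least 3 times in 0.0883% of promoters. Neither TATAAA, searched on both strands and found in 13.6% of promoters, nor the homeodomain sites TAATTG or TAATTA, found in 12.4%, occurred in the 6 windows. The promoters of Figla, Nobox, Sohlh1 and Sohlh2 held 16, 13, 14 and 17 CpG sites, and those of Lhx8 and Tbpl2 held 4 each, against a median of 7.

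Across the 7 genes, 82 of 106 body windows were called for H3K36me3, against 51.2% of body windows of all protein-coding genes, and 50 were above 1 in each replicate, against 34%. Taf4b made up 58 of these windows and 51 of the calls, and the other 6 genes had 31 of 48 windows called. Together the 106 windows held 2247 reads. H3K4me3 was called in 23 body windows, against a background of 26.2%, and H3K27me3 in 13, against 25.9%. All 13 of the latter lay in Sohlh1, Sohlh2 and the start of Lhx8. The calls of H3K4me3 and H3K27me3 are categories that the authors set from other libraries, without values or replicates.

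**Figure D2:**
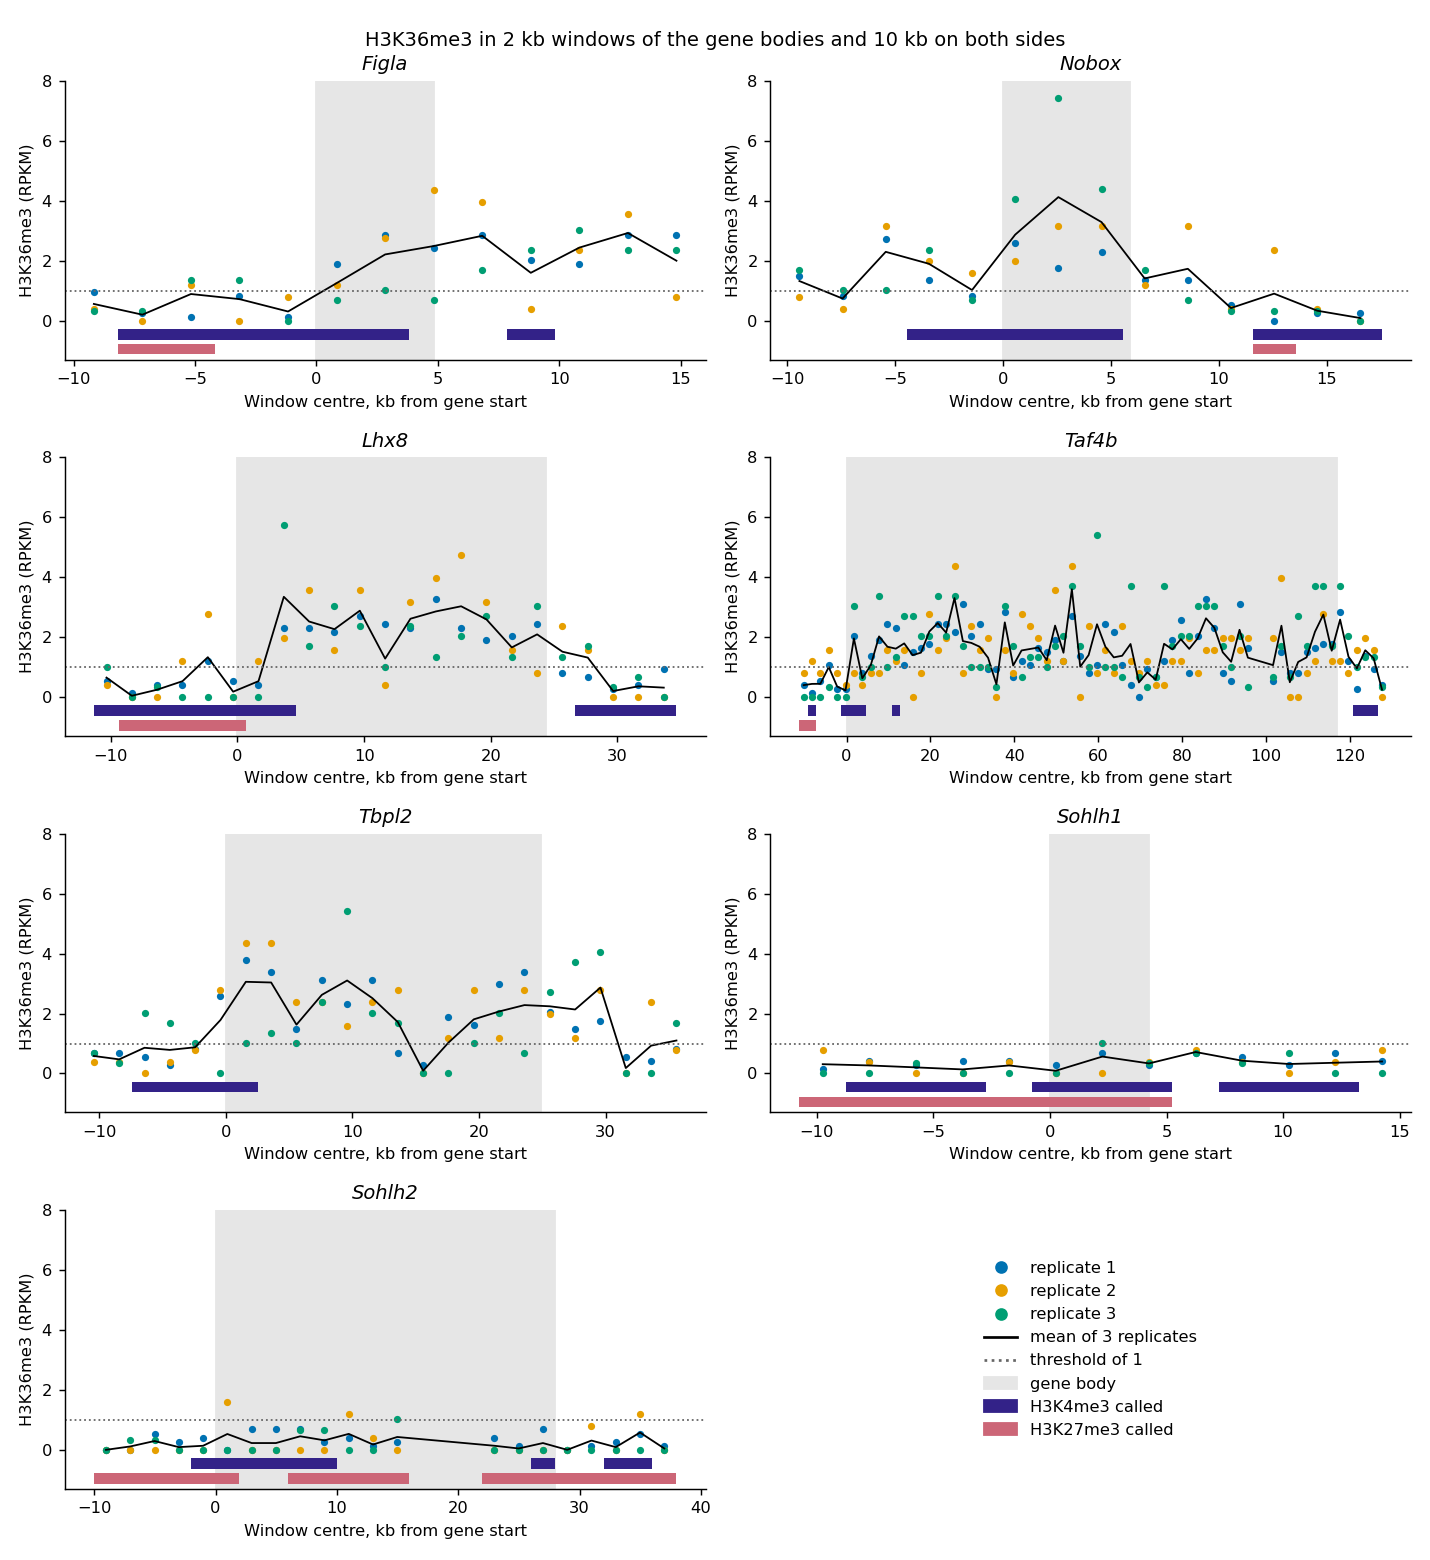
Each panel plots the RPKM of H3K36me3 in 2 kb windows (y axis) against the distance of the window centre from the gene start in kb (x axis), with coloured points for the 3 replicates, a black line for their mean, the gene body in grey and bars below 0 for windows called for H3K4me3 or H3K27me3. The signal of Lhx8 begins inside the gene, that of Figla runs on past its end, that of Nobox begins upstream of its start, and in Sohlh1 and Sohlh2 the mean stays below the dotted line at 1.

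Among the basic helix-loop-helix genes, Figla, whose product drives the zona pellucida genes as a heterodimer with E12, was the one with H3K36me3. It lies at chr6:86016171-86020996 on the plus strand (ENSMUSG00000030001.4, 2 transcripts). Its body level was 2.40 in replicate 1, 2.77 in replicate 2 and 0.790 in replicate 3, or 1.99 ± 1.05, higher than that of 76.2% of protein-coding genes. Replicate 3 stood apart, with 7 reads over 3 windows and an interval of 0.317 to 1.63 that did not reach the 1.80 to 3.14 of replicate 1. All 3 windows were called for H3K36me3, and 2 of them, the start window included, for H3K4me3 as well, while in replicate 3 alone 1 window was above 1, as were 35.1% of all valid windows there.

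The border of the Figla domain lay at the gene start on one side and far past the gene on the other. The 10 kb upstream had a level of 0.538 ± 0.120 and no H3K36me3 call, with H3K4me3 in 4 of 5 windows, and held the end of the noncoding gene 4930553P18Rik. The 10 kb downstream had 2.36 ± 0.14, with values of 2.50, 2.22 and 2.37 in the 3 replicates and calls in 5 of 5 windows. The downstream flank was therefore higher than the upstream flank in 3 of 3 replicates, by 1.74 ± 0.30 (SE) on a log2 scale with a pseudocount of 0.25 (adjusted p = 0.00073, limma moderated test with Benjamini-Hochberg adjustment), a call made in this direction for 27.3% of genes tested. The domain, a run of neighbouring windows called for H3K36me3, measured 110 kb, from chr6:86016001 to 86126000, and held 55 windows and 1878 reads at 2.65 ± 0.15. It was longer than 99.5% of such runs in the genome, whose median length was 4 kb. Most of it was the body of Add2, the gene for beta-adducin of the membrane skeleton on the same strand, where 48 of 48 windows were called at 2.72 ± 0.13. The 4 windows with a midpoint between both genes were called too, at 2.34 ± 0.42, and the first of them overlaps the end of Figla. Where each replicate had to be above 1, the run that touched Figla shrank to 2 kb. It was 6 kb long at a mean above 2 and 8 kb in replicate 2 alone. The border near the gene start lay 1.83 kb inside the gene at thresholds of 1.5 or 2, without replicate 1 and in replicate 3 alone. Body against flanks gave 0.26 ± 0.32 (SE) on the log2 scale (adjusted p = 0.557, limma), and 0.77 without replicate 3 (adjusted p = 0.047, limma).

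Sohlh1, which acts early in oocyte differentiation, carried no H3K36me3 call in 13 windows of its body and flanks. It lies at chr2:25842995-25847248 on the minus strand (ENSMUSG00000059625.6, 1 transcript). Its body level was 0.407, 0.132 and 0.451 in replicates 1, 2 and 3, from 9, 1 and 4 reads, with a mean of 0.330 ± 0.173 that was above 17.7% of genes, and the median over windows gave 0.203. All 3 body windows were called for H3K4me3 and H3K27me3 together, a combination found in 9.46% of valid windows, and the 5 windows upstream all had H3K27me3. The start window is among the body windows, and start windows of all protein-coding genes had H3K4me3 in 79.1% and H3K27me3 in 33% of cases. Of the 5 windows downstream none had H3K27me3, 3 had H3K4me3 and 2 had no mark. Body and flanks were at a like level, with a log2 ratio of -0.05 ± 0.27 (SE; adjusted p = 0.893, limma).

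Sohlh2, the heterodimer partner of Sohlh1, had the lowest mean of the 7 genes and lay in broad H3K27me3. It lies at chr3:55182028-55209957 on the plus strand (ENSMUSG00000027794.4, 1 transcript), and 3 of its windows were not in the deposited table. Its body level over the other 11 windows was 0.395, 0.288 and 0.215, or 0.300 ± 0.090 from 47 reads, above 14.8% of genes, and the median over windows in place of the mean gave 0.136. No replicate reached 1 as a gene level, and no window was called for H3K36me3. H3K27me3 was called in 9 of 11 body windows and in 10 of 10 flank windows, and H3K4me3 in 6 body windows, which included the start. The flanks were lower still, at 0.127 ± 0.122 upstream and 0.205 ± 0.198 downstream, so the gene fell under the filter on low values for the test of body against flanks. Ccdc169, the nearest gene upstream, was alike, with 0 of 17 windows called for H3K36me3, 16 of 17 for H3K27me3 and a level of 0.328 ± 0.095.

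Of both homeobox genes, Nobox, which is needed for the growth of primordial follicles, had the highest mean body level of all 7 genes. It lies at chr6:43303674-43309554 on the minus strand (ENSMUSG00000029736.15, 3 transcripts). Its body level was 2.00 in replicate 1, 2.38 in replicate 2 and 4.40 in replicate 3, with a mean of 2.93 ± 1.29 from 135 reads, above 98.8% of genes. Replicate 3 was the high one here, with an interval of 3.29 to 5.77 that did not reach the 1.52 to 2.58 of replicate 1. It did overlap the 1.52 to 3.54 of replicate 2. Without replicate 3 the level of Nobox was 2.19, below the 2.59 of Figla and the 2.34 of Tbpl2, so its rank depends on that replicate. All 4 body windows were above 1 in each replicate.

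The Nobox domain covered the whole gene and both its ends. It ran over 16 kb, from chr6:43300001 to 43316000, with a level of 2.33 ± 0.51 in 8 windows, from 6.45 kb upstream of the gene start to 3.67 kb past the gene end. The start window had H3K36me3 at 2.87 ± 1.1 together with H3K4me3, as had 2 further body windows. The upstream border moved to 0.446 kb before the start without replicate 2, at thresholds of 1.5 or 2 and where each replicate had to be above 1. RefSeq extends the gene 0.518 kb further upstream than GENCODE, to 43310072, so under those settings the border lies inside the RefSeq gene. The body was higher than the flanks by 1.21 ± 0.29 (SE) on the log2 scale, in 3 of 3 replicates (adjusted p = 0.013, limma), one of 4 genes of the 6 tested that were called higher, where 31.3% of all genes were. None of the 6 was called lower, where 10.3% of all genes were. With flanks of 5 kb the difference was 0.85 and was not called (adjusted p = 0.089, limma).

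The surroundings of Nobox differed on both sides of the gene. The upstream 10 kb had 1.46 ± 0.12, with 1.44, 1.59 and 1.35 in the replicates, and the downstream 10 kb had 0.699 ± 0.499, with 0.489, 1.27 and 0.338. The replicate values of both flanks did not overlap. Downstream was lower than upstream, with a log2 ratio of -0.97 ± 0.32 (SE; adjusted p = 0.029, limma), a direction called in 15.3% of genes, and the call was lost under 6 of 10 alternatives, among them without replicate 1 (-0.86, adjusted p = 0.191, limma) and without replicate 3 (-0.73, adjusted p = 0.153, limma). From 10 to 60 kb downstream, a stretch with Arhgef5, the level was 0.482 ± 0.090, and 1 of 25 windows was called for H3K36me3 and 15 for H3K27me3.

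Lhx8, a LIM-homeodomain factor needed for oocyte survival in early follicles, had the most even level of the 5 high genes and a domain that began inside the gene. It lies at chr3:154306294-154330659 on the minus strand (ENSMUSG00000096225.7, 5 transcripts). Its body level was 2.09, 2.29 and 2.06, or 2.14 ± 0.12 from 354 reads, above 81.9% of genes. The 3 replicates lay within each other's counting intervals. The upstream flank had 0.562 ± 0.301 and the downstream flank 0.743 ± 0.103, and no flank value reached the lowest body value. The body was higher than the flanks by 1.42 ± 0.19 (SE) on the log2 scale (adjusted p = 0.0017, limma), in 3 of 3 replicates and with a call under each of 12 alternatives.

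The first 2 windows of Lhx8 were without H3K36me3. The start window held 0.181 ± 0.314, from 4 reads in replicate 1 and none in the others, and was called for H3K4me3 and H3K27me3. The next held 0.532 and was called for H3K4me3, and the one after it, 2.66 kb into the gene, rose to 3.35, the highest window of the gene. From there the domain ran 26 kb, chr3:154302001 to 154328000, to 4.29 kb past the gene end, at 2.31 ± 0.19 over 13 windows. Without replicate 1, whose 18 reads made most of 1 window inside the gene, it broke into 2 runs, the longest of 16 kb. The side upstream of the start was shared with the divergent noncoding gene AI606473, where H3K4me3 and H3K27me3 were called in both windows, one of them the Lhx8 start window. The other had all 3 marks, at 1.33 RPKM, with 9 and 7 reads in replicates 1 and 2 and none in replicate 3. The later part of the Lhx8 body did not differ from the earlier part by the test (log2 ratio 0.30 ± 0.16 SE, adjusted p = 0.257, limma). The 2.66 kb to the domain border at 154328000 is counted from the outermost annotated start of Lhx8, at 154330659. Other annotated starts lie much nearer to that border. A protein-coding transcript starts at 154328634 and a further transcript, not classed as protein-coding, at 154328166. Which start is used in these oocytes was not tested.

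Taf4b, a germline subunit of the general factor TFIID, was the longest gene and carried the mark in 6 runs with gaps between them. It lies at chr18:14783245-14900359 on the plus strand (ENSMUSG00000054321.7, 2 transcripts), and 2 of its windows were not in the table. Its body level over 58 windows was 1.60, 1.49 and 1.91, or 1.67 ± 0.22 from 1229 reads, above 64.7% of genes. The lowest window was the start, at 0.223 ± 0.203 with H3K4me3, the median was 1.61 and the highest was 3.60. In all, 51 of 58 windows were called for H3K36me3, but 27 were above 1 in each replicate. No body window had H3K27me3.

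The runs on Taf4b were from 2 to 32 kb long, the longest exceeding 92.7% of all such runs, the first beginning 0.756 kb inside the gene and the last ending 3.64 kb past its end. One of the gaps between them is that of the absent windows, and the longest run held the processed pseudogene AC133172.1. Levels of the 6 runs were near each other, from 1.73 ± 1.08 to 1.96 ± 1.13. Taf4b was higher in the body than in its flanks by 0.88 ± 0.23 (SE) on the log2 scale, in 3 of 3 replicates (adjusted p = 0.017, limma). That call was lost without replicate 1 (0.81, adjusted p = 0.087, limma), without replicate 3 (0.69, adjusted p = 0.086, limma) and with flanks of 5 kb (0.73, adjusted p = 0.056, limma). RefSeq places the end of the gene 60.1 kb further on than GENCODE, at 14960424. Over that stretch the level was 0.590, 0.588 and 0.537, or 0.572 ± 0.030, with 5 of 29 windows called for H3K36me3 and 14 for H3K27me3. Its windows were taken by midpoint and include the last window of the GENCODE body. All 3 replicates of that stretch lay below all 3 of the GENCODE body.

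Tbpl2, the TBP relative that takes the place of TBP in growing oocytes, had more of the mark in the part of its body nearer the start. It lies at chr2:24071721-24096595 on the minus strand (ENSMUSG00000061809.8, 2 transcripts). Its body level was 2.34, 2.35 and 1.52, or 2.07 ± 0.47 from 387 reads, above 79.2% of genes. Replicate 3 was the low one, and its interval of 1.17 to 1.95 did not reach the 2.05 to 2.65 of replicate 1. It did overlap the 1.87 to 2.91 of replicate 2. H3K36me3 was called in 13 of 14 body windows and H3K4me3 in 2. The start window had both marks, at 2.58 and 2.77 in replicates 1 and 2, but held no read in replicate 3, whose interval reached 1.25.

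One window inside Tbpl2, chr2:24080001-24082000, held 2 reads in all and none of the 3 marks, and it split the signal into runs of 16 kb at 2.43 ± 0.52 and 14 kb at 2.06 ± 0.10. The first began 1.41 kb before the gene start, and the second ended 5.72 kb past the gene end. The part of the body nearer the 3′ end was lower than the part nearer the 5′ end, at 1.61 against 2.54 RPKM, with a log2 ratio of -0.59 ± 0.13 (SE) and the same direction in 3 of 3 replicates (adjusted p = 0.045, limma). The window with 2 reads in all lies in the part nearer the 3′ end and lowers its mean, and the ratio without that window was not computed. The lower direction was called in 2.06% of genes and the higher in 14.6%. The size of the difference held without each replicate, from -0.60 to -0.58, and the call did not (adjusted p from 0.114 to 0.184, limma), nor did it under 2 further settings of 7 in all. Body against flanks gave 0.82 ± 0.28 (SE) on the log2 scale (adjusted p = 0.046, limma), with 2 of 3 replicates higher and equal means in replicate 3. It was not called under 7 of 12 alternatives, among them without replicate 1 (0.58, adjusted p = 0.234, limma), without replicate 2 (0.65, adjusted p = 0.094, limma) and with flanks of 5 kb (0.34, adjusted p = 0.478, limma). The downstream flank was higher than the upstream flank by 0.85 ± 0.31 (SE; adjusted p = 0.042, limma), a call lost without any 1 of the replicates (adjusted p from 0.056 to 0.222, limma).

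**Figure D3:**
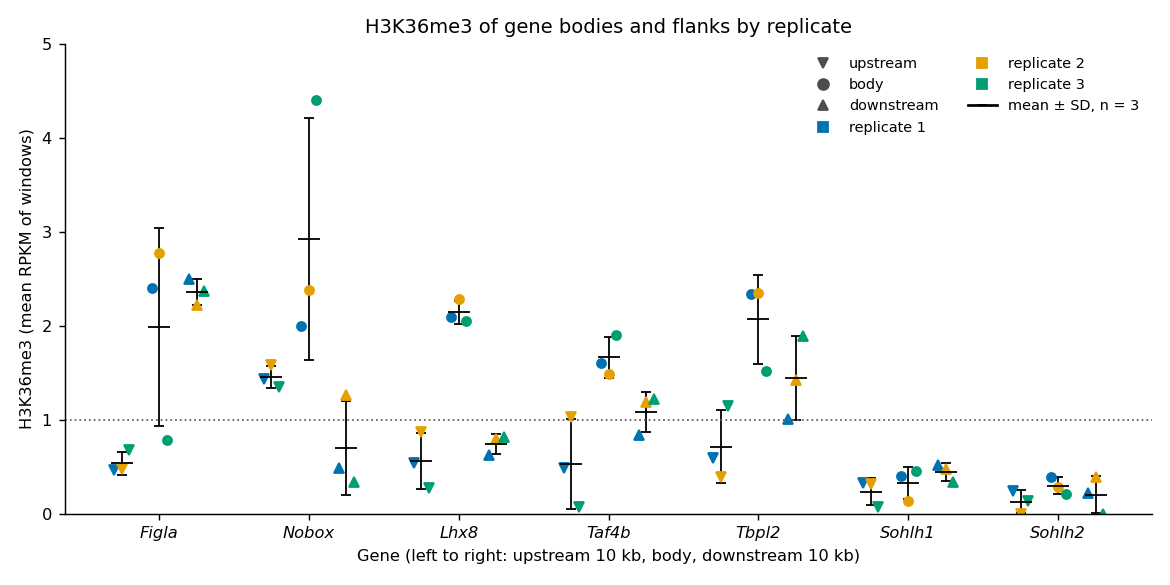
Points give the H3K36me3 level (y axis, mean RPKM of the windows) of the upstream 10 kb, the body and the downstream 10 kb of each gene (x axis) in each replicate, with the mean and SD (n = 3) as black bars. For Lhx8 the 3 body values, from 2.06 to 2.29, lie above every flank value, for Figla the downstream flank at 2.36 is as high as the body, and for Sohlh1 and Sohlh2 the mean of each region lies below 1.

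The 7 start windows were alike in one mark and split by the others. H3K4me3 was called in all 7, where 79.1% of start windows of protein-coding genes had it. H3K36me3 was called in those of Figla, Nobox and Tbpl2, where 23% had it, and H3K27me3 in those of Sohlh1, Sohlh2 and Lhx8, where 33% had it. Among the start windows called for H3K36me3, only that of Nobox was above 1 in each replicate. In replicate 3 that of Figla had 0.677 and that of Tbpl2 no read. Of the 5 genes with a level above 1, Lhx8 was the one with an H3K27me3 window in its body, against 18.4% of all genes above 1. Windows with an exon were compared with windows without one in the 3 long genes above 1. In Lhx8 the former had 1.96 ± 0.15 and the latter 2.44 ± 0.12, in Taf4b 1.78 ± 0.51 and 1.62 ± 0.09, and in Tbpl2 2.37 ± 0.64 and 1.67 ± 0.33. The replicate values overlapped in Taf4b and Tbpl2. In Lhx8 they did not, and the windows with an exon, which were the lower ones, include both windows at its start that were not called for H3K36me3.

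The lists of partners, targets and relatives were chosen with earlier results of these data known, so their counts only describe these lists. Most genes listed as partners of the 7 factors carried the mark. Of 10 partners, E proteins and subunits of the general transcription machinery or their relatives, 9 had a body level above 1, against 53.8% of all genes. Their median was 1.86, against 1.16 over all genes. Gtf2a1, a TFIIA subunit, was highest at 2.29 ± 0.35, and Taf4, the paralogue of Taf4b found in all cells, had 2.00 ± 0.05. The exception was the E protein gene Tcf4, at 0.733 ± 0.041 with H3K27me3 in 77 of 174 windows. By the limma test 5 of the 10 were higher in the body than in the flanks and none lower, beside 31.3% and 10.3% of all genes.

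Genes listed as known targets of these factors in oocytes were above 1 in 11 of 11 cases, against 53.8% of all genes, with a median of 1.88. None had an H3K27me3 window, against 18.4% of all genes above 1. Zp3, Gdf9, Bmp15 and Nlrp5 of this list are also among the oocyte markers, so both counts share these genes. Bmp15, an oocyte growth factor gene of the X chromosome, was highest at 3.73 ± 1.03, and Npm2, which encodes an oocyte nucleoplasmin, was lowest at 1.20 ± 0.44. The zona pellucida gene Zp2 had 2.45 ± 0.41 and Oosp1, an oocyte secreted protein gene, 1.24 ± 0.17. By the limma test 5 of 11 were higher in the body than in the flanks and none lower, where 31.3% of all genes were higher and 10.3% lower.

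Relatives were listed for the homeobox and basic helix-loop-helix members only, as 7 LIM-homeobox and 3 basic helix-loop-helix genes without a known role in oocytes. Of these 10 relatives, 0 had a level above 1, against 53.8% of all genes, with a median of 0.408. Ferd3l and Msgn1, with 1 body window each, are not among the genes behind the shares given for all genes. All 10 had H3K27me3 windows, against 44.5% of all genes. Lhx3, a factor of the pituitary and motor neurons, was highest at 0.615 ± 0.294 and Ferd3l, with 1 window, lowest at 0.0905 ± 0.157. Sohlh1 and Sohlh2 had levels within the range of these relatives, and both had H3K27me3 windows, as all 10 relatives had. Of 8 relatives tested, Lhx3 was lower in the body than in the flanks by the limma test, a direction called in 10.3% of all genes, and none was higher, a direction called in 31.3%. Taf4, Tbp and Tbpl1, relatives of Taf4b and Tbpl2 that were listed as partners, had levels of 2.00, 1.87 and 1.71 and no H3K27me3 window. The difference between both lists therefore depends on where such genes were placed.

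**Figure D4:**
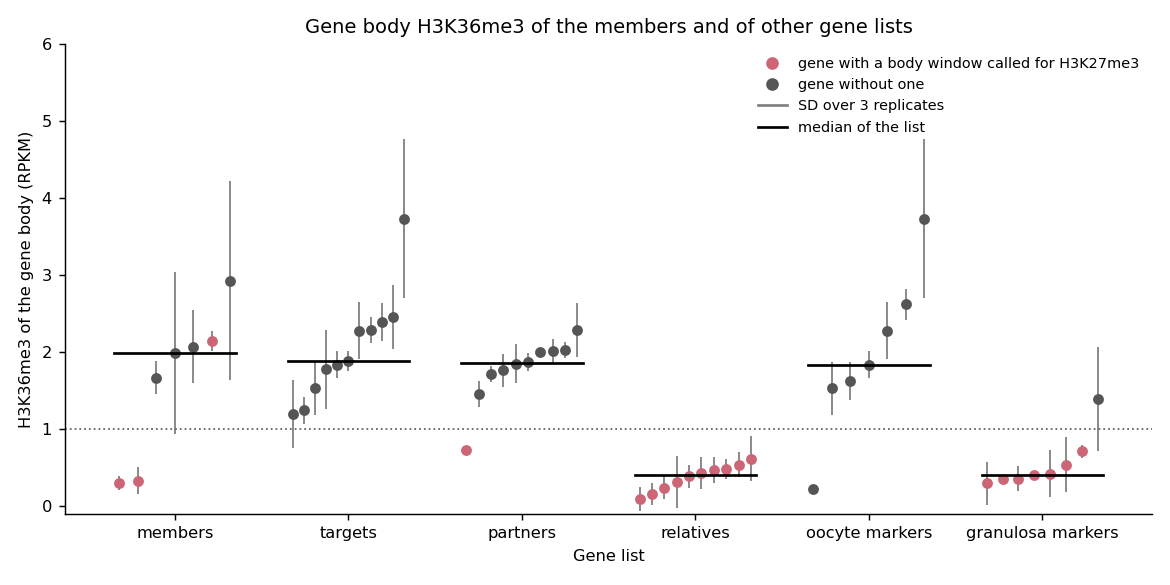
Each point is the H3K36me3 level of 1 gene body (y axis, RPKM, mean of 3 replicates with the SD as a grey line), grouped by gene list (x axis), coloured by whether any body window was called for H3K27me3, with the list median as a black bar. All 11 targets and 9 of 10 partners lie above the dotted line at 1, all 10 relatives lie below it with H3K27me3, and Sohlh1 and Sohlh2 sit at the level of the relatives. The lists were chosen with earlier results of these data known, and relatives of Taf4b and Tbpl2 are drawn among the partners.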

How the data were processed

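Trimmed reads were aligned by the authors to GRCm38 using Bowtie2 (version 2.2.9 in the submitters' processing notes) and quantified in SeqMonk over 2 kb windows, without those of extreme input signal. The deposited signal values are named RPKM, but 1 read was worth more than RPKM over the reads in the table would give. Every value was a whole multiple of the value of 1 read (100% within 0.01 reads), which gave the read counts. Duplicate removal is not given in the sources used here. The second deposited file holds only category names of marks. The 7 genes and the gene lists were chosen with earlier results of these data known. Ratios were taken within each library with a pseudocount of 0.25, which understates changes at low values, for genes with a mean of at least 0.25, and were tested against 0 with limma 3.58.1 (R 4.3.3) and Benjamini-Hochberg adjustment over all genes (threshold 0.05), since the study gives no test for genes. A window belonged to the body where it overlapped it, and to a neighbouring gene or stretch where its midpoint lay inside. The labels do not say whether the pools came from separate animals, so p-values measure only the spread between these 3 samples. All 7 genes, neighbours overlapping their windows, the extremes of each list and, for likeness, the best match of each gene with at least 10 body windows were named. Scripts were tested on simulated data. edgeR 4.0.16 and DESeq2 1.42.0 on the recovered reads, other pseudocounts, filters, flanks, window assignments and each replicate left out were alternatives.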

Additional observations from a re-analysis of the deposited data

How the results depend on the processing

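Of 235 values under alternative settings, 186 were classed as the same as the main value. For log2 ratios this meant the same direction and side of the threshold, while counts and levels were classed only as the same or moved. Body against flanks, with 7718 genes called by limma, gave 5426 to 7469 without 1 replicate, 8413 with edgeR and 6008 with DESeq2 on recovered reads, both with the replicate as a block. The 5 genes above 1 were 5 under each of 5 alternatives. The comparison of the later with the earlier part of the body fell from 2239 genes to 0 without any 1 replicate by limma, the single tool run for it, with 3347 to 4171 genes at an unadjusted p under 0.05, so its calls need all 3 libraries. Downstream against upstream fell from 7849 genes to 4971 with 5 kb flanks and to 1737 where flank windows held no other gene (7258 genes tested), and gave 5085 to 7644 without 1 replicate, the lowest without replicate 1. The 143 windows in domains became 41 with a mean above 2, 52 with each replicate above 1 and 133 to 140 without 1 replicate. Directions turned, with log2 ratios not called in the reported or the turned form, for Figla body against flanks (-0.078 to 0.77 without 1 replicate, the lowest without replicate 2, and -0.0085 with 20 kb flanks), Sohlh1 body against flanks (-0.39 to 0.30 without 1 replicate, the highest without replicate 2, 0.023 with 20 kb flanks and 0.0013 with edgeR), the later part of Taf4b (-0.16 to 0.0061 without 1 replicate, the highest without replicate 1) and Lhx8 downstream against upstream (-0.43 with 20 kb flanks). The cause was not tested. At 0.136 to 0.396 RPKM for 1 read, single windows of replicates 2 and 3 rest on few reads.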

Other observations

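For each gene with at least 10 body windows, the gene whose H3K36me3 profile was most alike was sought among 9374 protein-coding genes, over 20 bins of the mean over replicates that covered the body and 10 kb on both sides. For Lhx8 it was Tra2b, a splicing factor gene, with Pearson's r = 0.93 across bins and a body level of 1.84 ± 0.08. For Taf4b it was Lars2, the mitochondrial leucyl-tRNA synthetase gene, with r = 0.89 and a level of 2.45 ± 0.11. For Tbpl2 it was Oit1, with r = 0.86 and a level of 1.56 ± 0.31, and for Sohlh2 it was Mogat2, an acyltransferase gene, with r = 0.73 and a level of 0.465 ± 0.206. The median r over all genes was 0.35 for Lhx8, 0.30 for Taf4b, 0.20 for Tbpl2 and 0.06 for Sohlh2. Bins of 1 gene share libraries and overlap in reads with their neighbours, so these values are descriptions.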
